A study of Homo sapiens with 4 samples.

Results

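The Hippo pathway genes described here are LATS1, LATS2, STK3, STK4, SAV1, NF2, YAP1, WWTR1, TEAD1 and TEAD4, looked up among the gene probes of an Agilent expression array by current gene symbol, through the accession of each probe where this could be matched. Of these 10 genes, 7 had a probe, 1 each, among the 14297 gene probes (14267 genes) of the array. WWTR1, TEAD1 and TEAD4 matched no probe and were not analysed here. The probe that the array design names TAZ carries the accession of tafazzin, and the probe named MST1 belongs to the gene of macrophage-stimulating protein, so neither was read as WWTR1 (also called TAZ) or as STK4 (also called MST1). Of the 7 genes, 6 were bright enough to be tested, out of 8836 genes tested on the whole array.

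The Hippo pathway is a kinase cascade that restrains a pair of transcriptional co-activators. At its core STK3 and STK4, kept active by the scaffold SAV1, phosphorylate LATS1 and LATS2 with the help of MOB1 proteins, and NF2 (merlin) recruits the LATS kinases to the membrane. Active LATS kinases phosphorylate YAP1 and WWTR1, which are then held in the cytoplasm or degraded, and otherwise enter the nucleus and, on TEAD factors, drive genes such as CCN1, CCN2, AMOTL2 and LATS2 itself.

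RNA was taken from K562, an established human erythroleukemia line that carries the BCR-ABL fusion kinase and grows in suspension. Treated cells received AC-1041, a thalidomide analog with a trifluorophthalimide core and a morpholine substituent, for 4 h. The labels call the control untreated at 4 h, whereas the methods of the study speak of a solvent control, and the dose stands in those methods but not in the labels. Treated and control RNA were hybridised together on 4 arrays, with treated RNA in Cy5 on arrays 1 and 2 and in Cy3 on arrays 3 and 4. The methods speak of replicate samples for each compound, but neither they nor the labels say whether each array holds a separate culture. The spread between arrays, on which the errors given here rest, may thus be technical.

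The values are log2 ratios of treated over control, positive where the treated channel was brighter. They were tested by limma with a dye term, at an adjusted p under 0.05. An SD given here is over the arrays. The standard errors, intervals and adjusted p values by limma come from the spread within a dye orientation (arrays 1 and 2, arrays 3 and 4). This spread is shrunk towards that of all probes. A gene can thus pass although its orientations differ. No array had fewer than 5941 or more than 9515 gene probes well above background in a channel, and the lowest numbers were on array 2. Across tested probes the arrays of the same orientation correlated at 0.81 and 0.95, and arrays of opposite orientation at -0.29 to -0.09, so where arrays 1 and 2 differ from arrays 3 and 4 for a gene, the dye and the quality of the arrays cannot be told apart. The dye term passed for 58.2% of genes tested, and among the members for LATS1 and STK4. Of 11 erythroid and leukemia markers of K562 on the array, 10 were well above background in control RNA on every array. Of 10 markers of other cell types, 4 (MS4A1, ALB, COL1A1 and COL1A2) were not well above background on any array, and CD79A and EPCAM were on all 4.

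LATS2 encodes a kinase at the end of the cascade that is also a target gene of the co-activators it restrains. The stretch around its transcription start is shown because it is where TEAD motifs would be looked for, beside those of the target genes NUAK2, AMOTL2 and AXL, which are described further on. The sequences run 5′ to 3′ on the strand of the gene in GRCh38.p14, from RefSeq, and capitals mark the TEAD motif GGAATG on either strand. LATS2 lies at chr13:21061537-21061836 on the minus strand, NUAK2 at chr1:205321696-205321995 on the minus strand, AMOTL2 at chr3:134374398-134374697 on the minus strand and AXL at chr19:41226505-41226804 on the plus strand.
LATS2: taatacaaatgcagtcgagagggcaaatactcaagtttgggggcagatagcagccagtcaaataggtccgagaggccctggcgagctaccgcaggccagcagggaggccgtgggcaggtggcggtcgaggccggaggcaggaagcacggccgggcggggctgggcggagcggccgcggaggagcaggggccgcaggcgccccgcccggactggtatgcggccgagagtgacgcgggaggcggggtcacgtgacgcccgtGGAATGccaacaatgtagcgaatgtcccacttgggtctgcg
NUAK2: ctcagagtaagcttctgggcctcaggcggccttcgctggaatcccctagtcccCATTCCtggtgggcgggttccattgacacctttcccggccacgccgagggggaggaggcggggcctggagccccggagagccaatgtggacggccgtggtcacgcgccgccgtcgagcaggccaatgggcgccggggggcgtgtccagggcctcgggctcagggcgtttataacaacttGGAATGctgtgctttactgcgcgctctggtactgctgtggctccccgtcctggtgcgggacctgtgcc
AMOTL2: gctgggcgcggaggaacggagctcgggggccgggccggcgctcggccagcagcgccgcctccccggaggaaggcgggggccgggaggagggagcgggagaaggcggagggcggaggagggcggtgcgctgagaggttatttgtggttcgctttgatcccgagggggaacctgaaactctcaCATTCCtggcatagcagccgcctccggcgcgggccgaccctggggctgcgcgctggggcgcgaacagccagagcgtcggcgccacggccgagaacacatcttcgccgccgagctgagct
AXL: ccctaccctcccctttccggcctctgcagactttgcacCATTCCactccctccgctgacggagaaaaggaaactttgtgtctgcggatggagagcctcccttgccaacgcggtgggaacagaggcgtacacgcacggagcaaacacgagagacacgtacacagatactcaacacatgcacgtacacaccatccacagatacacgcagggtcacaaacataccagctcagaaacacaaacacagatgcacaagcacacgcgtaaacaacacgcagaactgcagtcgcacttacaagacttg
GGAATG stood once in the LATS2 window, 10 bases into the transcript. CACGTG, the E-box motif, began 5 bases before the start and reached the first base of the transcript. NUAK2 had 2 matches, and AMOTL2 and AXL 1 each. Only windows that hold GGAATG are shown, and not that of FJX1, a target described further on, which held none. No GGAATG match was found either for CCN1, GADD45A and ASAP1, other targets described further on, though not every target had a window. Of 35116 such windows in the genome, 14.0% held GGAATG and 7.26% held CACGTG. Among the members with a window, LATS2 and YAP1 were the 2 of 7 that held GGAATG, and among the known targets of YAP1 and WWTR1 8 of 15 did. CACGTG was held by 3 of the 7 members (LATS2, STK4 and YAP1) and by 2 of the 15 targets (FJX1 and TGFB2). A match is a run of letters and not a measured binding site.

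LATS2 was the member that rose most. Its log2 ratio on arrays 1 to 4 was 0.82, 0.73, 0.77 and 0.81. The values of all 4 arrays lay above 0 and close together, whichever dye carried the treated RNA: arrays 1 and 2 averaged 0.78, and arrays 3 and 4 averaged 0.79. The overall mean was 0.78 ± 0.04 (SD, n = 4), a 1.72-fold rise, with a standard error of 0.064, a 95% interval of 0.64 to 0.93 and an adjusted p of 7.46e-05 by limma. Of the 8836 genes tested, 256 (2.90%) had a higher log2 ratio. Of 7976 tested genes with a value on all 4 arrays, 52 (0.652%) had a smaller SD. An exact sign-flip permutation over the arrays gave a 2-sided p of 0.125, the smallest that 4 arrays allow.

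The LATS2 probe lies at chr13:20445929-20445988 on the minus strand in hg18, the build of the array design. Its processed signal, the background-subtracted and dye-normalised intensity, was 189, 140, 298 and 388 in the treated channel of arrays 1 to 4. In the control channel it was 61.5, 35.3, 145 and 193. The treated signal was higher on every array, and was well above background on all 4, whereas the control signal was so on arrays 3 and 4 only. On these processed signals the log2 ratio was 1.62, 1.99, 1.04 and 1.01, a mean of 1.41 ± 0.48 (SD, n = 4) or 2.67-fold. The direction was the same on this scale, but the arrays whose control signal was near background (1 and 2) gave the higher ratios. The processed signals differ from the main values in both background correction and normalisation. With the background step alone changed, the mean was 0.745 without subtraction and 0.83 with a smaller offset. With normalisation alone changed to median centring, it was 0.80. Which step makes the processed ratios larger was not tested. Without the dye term the mean stayed at 0.78 and the adjusted p by limma was 0.0532.

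**Figure D1:**
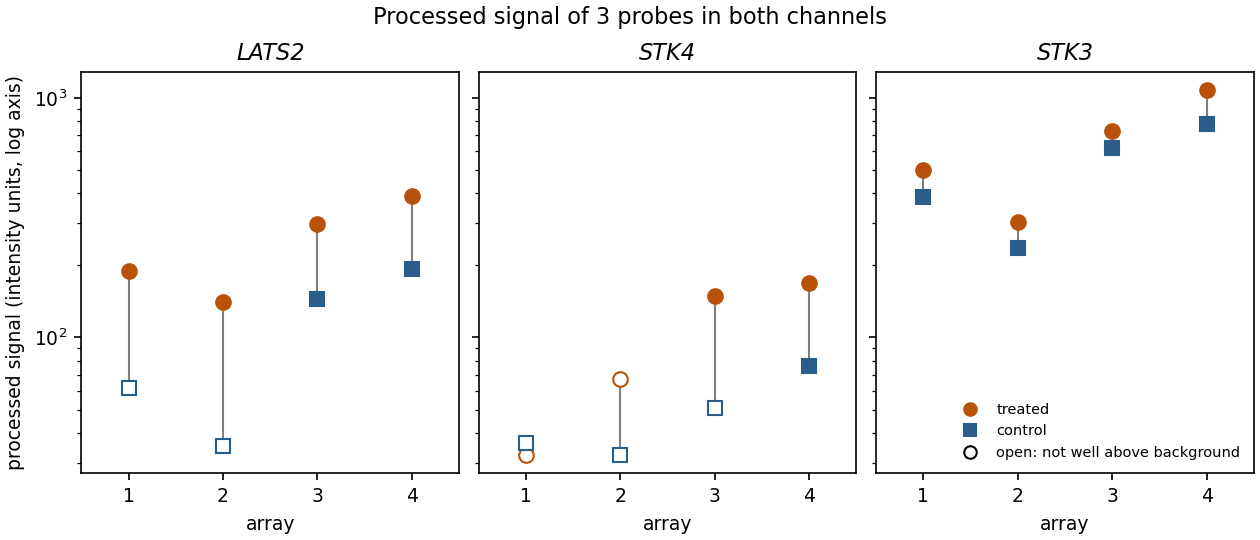
Processed signal (intensity units, log axis) of the LATS2, STK3 and STK4 probes in the treated and control channels of each array, open where a channel was not well above background. The treated LATS2 signal lies above the control signal on all 4 arrays, and the control signal is well above background on arrays 3 and 4.

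LATS1, the other LATS kinase, did not pass the test. Its spot on array 1 was marked as an outlier by the scanner software and left out, and the log2 ratio was 0.54 on array 2, -0.24 on array 3 and 0.04 on array 4. The mean of these was 0.11 ± 0.40 (SD, n = 3), and their signs differed. The limma fit, which balances the orientations, gave 0.22 with a 95% interval of -0.002 to 0.44 and an adjusted p of 0.109. On the processed signals the estimate was -0.05, with an adjusted p of 0.828 by limma, so no direction can be given for LATS1. With the marked spot kept it was 0.28, with an adjusted p of 0.0358. The probe lies at chr6:150024076-150024135 on the minus strand (hg18) and was well above background on 3 arrays in the treated channel and on 2 in the control channel. On the 3 arrays that measured both kinases, LATS1 was lower than LATS2 each time, by 0.66 ± 0.42 (SD) on the log2 scale. The exact sign-flip permutation of this difference gave a p of 0.25, the smallest that 3 arrays allow.

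STK3 (also called MST2) and STK4 are the paired kinases that activate LATS1 and LATS2. The STK3 log2 ratio was 0.36, 0.43, 0.25 and 0.47 on arrays 1 to 4, above 0 on each, a mean of 0.38 ± 0.10 (SD, n = 4). STK3 rose 1.30-fold (standard error 0.069, 95% interval 0.22 to 0.53, adjusted p 0.00362 by limma). Its probe, at chr8:99537209-99537268 in hg18, was well above background in both channels of every array. The processed signals were 502, 303, 730 and 1076 in treated cells against 387, 237, 619 and 780 in control cells, and gave a mean log2 ratio of 0.36 ± 0.09 (SD, n = 4). The size of the rise was thus nearly the same on both scales. The call was lost without array 4 (adjusted p 0.0679) and without the dye term (adjusted p 0.202).

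STK4 passed the test with a fitted log2 ratio of 0.36 (standard error 0.0905, 95% interval 0.15 to 0.57, adjusted p 0.0149 by limma). The arrays did not share a direction: the values were -0.23 and 0.28 on arrays 1 and 2 and 0.76 and 0.64 on arrays 3 and 4, a mean of 0.36 ± 0.45 (SD, n = 4). Arrays 1 and 2 averaged 0.02 and arrays 3 and 4 averaged 0.70, and the dye term itself passed (adjusted p 0.0121). The STK4 probe, at chr20:43034350-43034409 on the plus strand (hg18), was well above background on arrays 3 and 4 in the treated channel and on array 4 in the control channel, so it entered the test through the treated channel. From the processed signals the log2 ratio was 0.90 (adjusted p 0.0319 by limma), over 1.5 times the main value. The call was lost without array 3 (adjusted p 0.11) and without array 4 (adjusted p 0.0821). Between STK3 and STK4 the mean difference was 0.01 ± 0.47 (SD, n = 4), with signs divided 2 to 2.

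SAV1, the scaffold that keeps STK3 and STK4 active, lay just inside the threshold. Its log2 ratio was 0.11, 0.55, 0.10 and 0.26, all above 0, and array 2 was the highest. The mean was 0.26 ± 0.21 (SD, n = 4), or 1.20-fold (standard error 0.086, 95% interval 0.06 to 0.45, adjusted p 0.0451 by limma). Its probe (chr14:50181260-50181319 on the minus strand, hg18) was well above background in both channels of every array. On the processed signals the adjusted p was 0.0704, and it was 0.146, 0.122 and 0.272 without arrays 2, 3 and 4.

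NF2, the membrane-linked tumor suppressor upstream of the kinases, did not pass. Its log2 ratio was -0.39, -0.10, 0.13 and 0.11, below 0 on arrays 1 and 2 and above 0 on arrays 3 and 4. The mean was -0.06 ± 0.24 (SD, n = 4), with a 95% interval of -0.23 to 0.11 and an adjusted p of 0.548 by limma. The positions given for the NF2 probe run from 28387293 to 28391002 on the plus strand of chromosome 22 (hg18), longer than a probe, as for one that crosses an exon junction. YAP1, the co-activator that the kinases restrain, was not well above background in either channel of any array and was not tested. Its log2 ratio was 0.09, -0.14, 0.07 and -0.08 (probe at chr11:101608142-101608201 on the plus strand, hg18).

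Of the 6 members tested, 4 rose (LATS2, STK3, STK4 and SAV1) and none fell. STK4 entered the test through the treated channel only, a route that favours a rise, and it is part of this count and of the median. Of all genes tested, 24.3% were called higher, 13.0% lower and 37.3% in either direction. The 3 members both called higher and above 0 on all 4 arrays were LATS2, STK3 and SAV1, where 13.0% of all genes were so called and 15.1% were above 0 on all 4 arrays. The median log2 ratio of the 6 was 0.31, beside 0.02 over all genes tested. The count of members called higher was 5 of 6 tested without array 1, 2 of 5 without array 3 and 1 of 5, LATS2, without array 4. Over all probes the same fits called 2590 of 8812, 1241 of 8011 and 1008 of 7997 higher. Without the dye term no member was called, and 54 of 8852 probes were called higher. In that fit LATS2 and STK3 had an unadjusted p under 0.05 by limma, both higher. At that level 927 of the 8852 probes were higher and 337 lower.

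**Figure D2:**
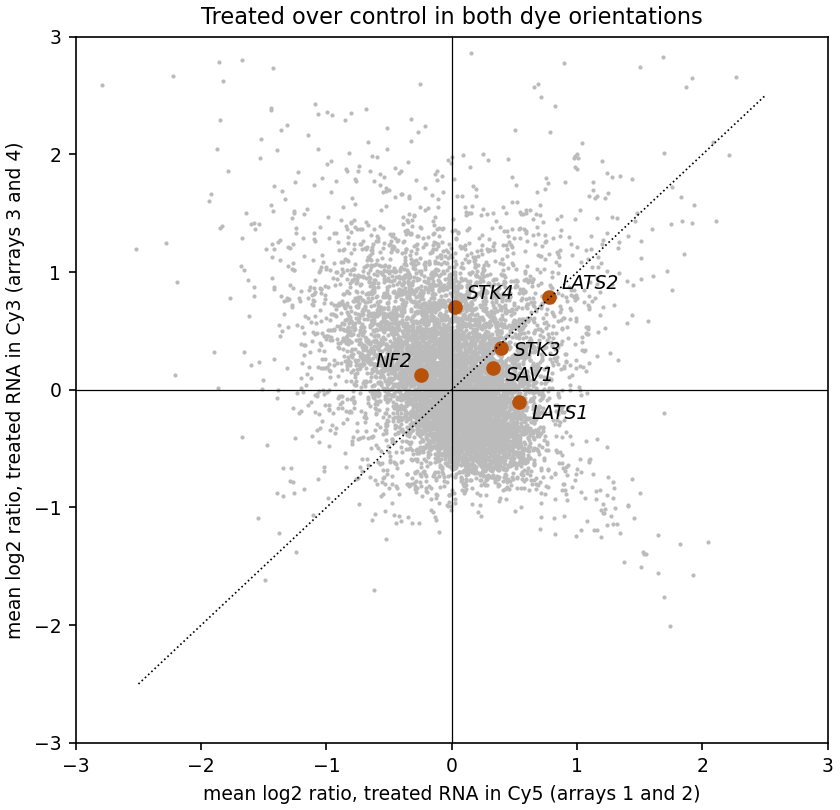
Mean log2 ratio of treated over control with treated RNA in Cy5 (horizontal axis) and in Cy3 (vertical axis) for all tested genes as grey points, 3 of which lie outside the axes, with the tested Hippo members named. LATS2 lies on the diagonal at 0.78 and 0.79, whereas STK4 lies above it at 0.02 and 0.70.

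Comparing members with each other, LATS2 exceeded STK3 on all 4 arrays, by 0.41 ± 0.10 (SD) on the log2 scale. The lead over STK4 was 0.42 ± 0.46 and that over SAV1 0.53 ± 0.24, again on 4 of 4 arrays. NF2 lay below LATS2 by 0.84 ± 0.26. STK3 and SAV1 differed by 0.12 ± 0.17, less than the spread between arrays. Over the 15 pairs of tested members the lowest adjusted p of the exact sign-flip permutation was 0.3125, and with 4 arrays no pair can reach an unadjusted p below 0.125.

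The wider pathway was read in 4 lists by role, together 86 genes, of which 75 had a probe and 51 were tested. Of these, 13 (25.5%) were called higher and 4 (7.84%) lower, close to the 24.3% and 13.0% of all genes tested. Their median log2 ratio was 0.08. The 13 include TAOK1 and STRN3, which entered the test through the treated channel. The 4 include FJX1, which entered it through the control channel.

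Among 33 upstream kinases and scaffolds, 29 had a probe and 20 were tested. Of the 20, 3 (15%) were called higher and 2 (10%) lower, beside 24.3% and 13.0% of all genes tested. The median was 0.05. The NDR kinases STK38 and STK38L, close relatives of the LATS kinases, both rose. STK38 had log2 ratios of 0.65, 0.66, 0.08 and 0.20 (fit 0.40, standard error 0.0651, adjusted p 0.002 by limma), and STK38L 0.26, 0.22, 0.46 and 0.59 (fit 0.38, standard error 0.0654, adjusted p 0.00261). All values of both were above 0, with STK38 higher on arrays 1 and 2 and STK38L on arrays 3 and 4. TAOK1, a kinase that activates STK3 and STK4, was the third called higher (adjusted p 0.0214), but its arrays read -0.11, -0.24, 0.75 and 0.60. Its control signal was not well above background on any array and its mean treated level lay below the dimmest such signals, so no size of change can be given for TAOK1. TAOK1 was well above background on 2 arrays in the treated channel and thus entered the test through that channel. DLG1, a polarity scaffold, fell, with -0.75, -1.01, -0.01 and -0.20 (fit -0.49, adjusted p 0.0014). RASSF5, an adaptor that binds STK4, passed as lower (fit -0.43, adjusted p 0.00144), with opposite signs in the orientations: -1.29 and -1.42 on arrays 1 and 2 and 0.50 and 0.49 on arrays 3 and 4. The LATS co-activator MOB1A, named here after its values were seen, had a similar division, with -0.75, -1.03, 0.51 and 0.58, and did not pass (adjusted p 0.0914).

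Of 16 negative regulators of the kinase core, 13 had a probe and all 13 were tested. Of the 13, 4 (30.8%) rose and none fell, beside 24.3% and 13.0% of all genes tested. The median was 0.12. AJUBA, a LIM-domain protein that binds and inhibits LATS kinases, read 0.58, 0.27, 0.43 and 0.75, a mean of 0.51 ± 0.21 (SD, n = 4); the adjusted p was 0.00208 by limma. STRN and STRN3 are striatins, subunits of the phosphatase complex that acts on STK3 and STK4. STRN read 0.27, 0.78, 0.10 and 0.47 (adjusted p 0.0137) and STRN3 0.03, 0.48, 0.44 and 0.29 (adjusted p 0.022). STRN3 was well above background on 2 arrays in the treated channel and on 1 in the control channel. It thus entered the test through the treated channel. ITCH, a ubiquitin ligase for LATS1, read 0.16, -0.09, 0.47 and 0.37 (fit 0.23, adjusted p 0.0354). AJUBA and the striatins were above 0 on every array, and ITCH on 3 of 4. The call was lost in 1 of 20 alternatives for AJUBA, 5 of 19 for STRN, 6 of 19 for STRN3 and 8 of 20 for ITCH. On the processed signals the adjusted p by limma was 0.141 for STRN and 0.125 for ITCH.

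The 16 partners of the co-activators were TEAD and VGLL factors, the YWHA adaptors and the enzymes that mark YAP1 for degradation. Of these, 14 had a probe and 10 were tested. Of the 10, 1 (10%) rose and none fell, beside 24.3% and 13.0% of all genes tested. The median was -0.02. The gene that rose was BTRC, the F-box protein through which phosphorylated YAP1 is degraded. Its log2 ratio was 0.33, 0.26, 0.31 and 0.40, a mean of 0.33 ± 0.06 (SD, n = 4); by limma the adjusted p was 0.00509. On the main values its ratio, like that of LATS2, varied little between orientations. On the processed signals BTRC had a log2 ratio of 0.80 (adjusted p 0.00635 by limma). There LATS2 averaged 1.81 on arrays 1 and 2 and 1.02 on arrays 3 and 4. The BTRC probe was well above background on 3 arrays in the treated channel and on 2 in the control channel.

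Of 21 known target genes of YAP1 and WWTR1, 19 had a probe but only 8 were tested. Of the 8, 5 (62.5%) rose and 2 (25%) fell, beside 24.3% and 13.0% of all genes tested. The median was 0.28. The 11 not tested were too dim, CCN2 among them. NUAK2, a kinase of the AMPK family, read 0.75, 1.03, 0.43 and 0.79, a mean of 0.75 ± 0.25 (SD, n = 4); the adjusted p was 0.000321 by limma. GADD45A, a growth arrest gene that many stresses induce, read 0.64, 0.71, 0.54 and 0.83, a mean of 0.68 ± 0.12 (SD, n = 4); the adjusted p was 0.000257. Both were above 0 on all arrays and of a size near that of LATS2. The matricellular protein gene CCN1 read 0.62, 1.05, -0.13 and 0.62 (fit 0.54, adjusted p 0.0105), above 0 on 3 of 4 arrays. The CCN1 call was lost in 6 of 19 alternatives, among them the processed signals (adjusted p 0.0532 by limma). ASAP1, a regulator of ARF GTPases, passed with a fit of 0.37 (adjusted p 0.014) but read -0.51 and 0.02 on arrays 1 and 2 and 0.92 and 1.05 on arrays 3 and 4. The angiomotin AMOTL2, named here after its values were seen, read 0.24, 0.16, 0.20 and 0.17, a mean of 0.19 ± 0.04 (SD, n = 4); the adjusted p was 0.0443. The AMOTL2 call was lost in 15 of 19 alternatives, among them the processed signals (adjusted p 0.0699), median centring (0.111) and both fits on arrays averaged in pairs (0.0573 and 0.0617).

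The targets that fell were FJX1, a Golgi kinase-like protein related to Drosophila four-jointed, and the receptor tyrosine kinase AXL. FJX1 read -0.46, -0.43, -0.97 and -1.29 (fit -0.79, adjusted p 0.000143 by limma). Its treated signal was not well above background on any array, and its control signal was so on 2. FJX1 thus entered the test through the control channel. Its mean control level lay 1.42-fold above a floor set by the dimmest signals well above background. That mean includes arrays with a dim control, so it is not a firm lower bound on the fall. AXL read -0.07, -0.14, -0.53 and -0.55, a mean of -0.32 ± 0.25 (SD, n = 4); the adjusted p was 0.00517. The AXL call was lost without array 3 (adjusted p 0.0534), without array 4 (0.0702) and with treated RNA in Cy5 only (-0.11, adjusted p 0.502). Every value of both genes lay below 0. The targets thus did not share a direction. Leaving out array 4 lowered the counts called higher to 1 among upstream kinases, 1 among negative regulators, 0 among partners and 2 among targets, and the count of targets called lower to 1. Over all probes that fit called 1008 higher and 283 lower, against 2155 and 1152 with all arrays.

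**Figure D3:**
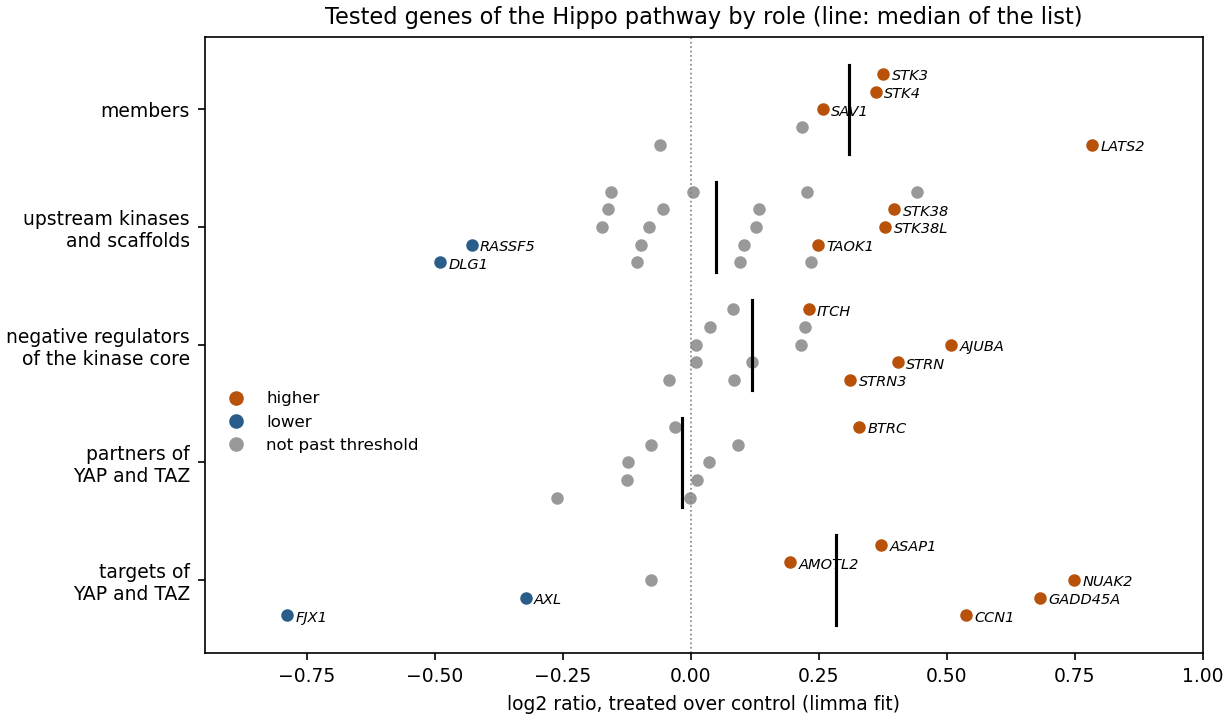
Fitted log2 ratio of treated over control (horizontal axis) for each tested gene of the Hippo pathway, in rows by role, coloured by whether limma called it higher, lower or neither, with a line at the median of each row. LATS2 at 0.78 and NUAK2 at 0.75 lie farthest to the right, and FJX1 at -0.79 farthest to the left.

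The genes with a pattern most like that of LATS2 were found by the Euclidean distance between the 4 log2 ratios, among 7975 other tested genes with a value on every array. The nearest was LPAR5, a receptor for lysophosphatidic acid, at a distance of 0.073 and a mean log2 ratio of 0.76. SH3TC1 followed at 0.148 (mean 0.77), then OSTM1, a lysosomal membrane protein, at 0.157 (mean 0.71), BEX5 at 0.166 (mean 0.83) and KLF9, a zinc finger transcription factor, at 0.191 (mean 0.74). All 5 were above 0 on every array. SH3TC1 was well above background on 2 arrays in the treated channel and on 1 in the control channel. It thus entered the test through the treated channel. The order rests on 4 arrays and was not tested.

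**Figure D4:**
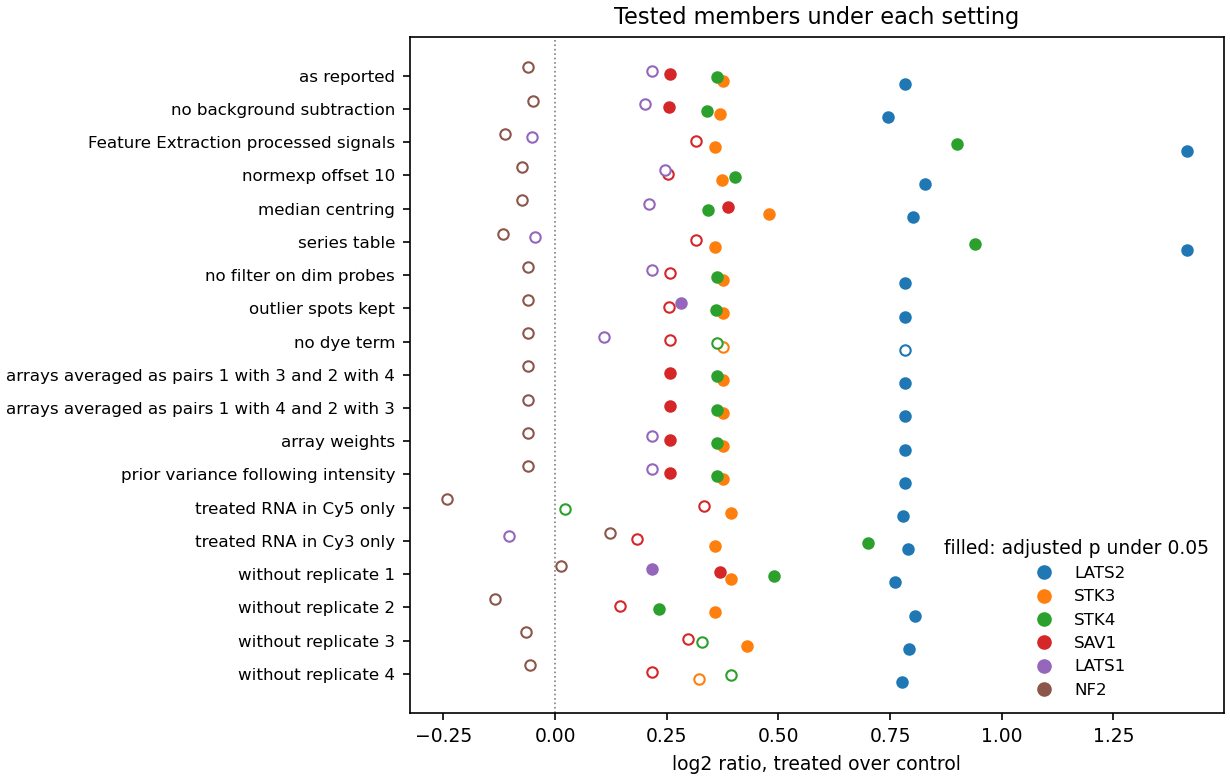
Log2 ratio of treated over control (horizontal axis) of each tested member under the main setting and each alternative (rows), filled where the adjusted p by limma was under 0.05. LATS2 stays between 0.745 and 1.41 wherever it was tested and is open without the dye term, whereas LATS1 and NF2 change sign.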

How the data were processed

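RNA of treated and control K562 cells was amplified, labelled with Cy5 or Cy3 and hybridised to 4 Agilent arrays. The authors scanned the arrays with Feature Extraction 9.5.1.1 and deposited, per the file headers, linear intensities of each spot and its background in both channels, the processed intensities, and the log10 ratio of red over green. A value table of the series held the same log10 ratios, as deposited by the authors, to within 0.001 for 99.9 to 100% of the probes of an array, with arrays 3 and 4 turned so that treated is over control. Groups and dyes were taken from the labels.

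Mean intensities were background-corrected with normexp (offset 50), normalised within each array by loess (span 0.3) and turned to log2 of treated over control (limma 3.58.1, R 4.3.3). Normexp with this offset compresses the ratios of dim spots. Control spots and spots marked as outliers were left out. A probe was tested if at least 1 channel was well above background on at least 2 arrays and at least 3 spots were unmarked, which left 8852 probes. The limma model held treatment and a dye term, with Benjamini-Hochberg adjustment over all probes tested. A gene was read by its probe, or by the brightest of several. In all, 12002 probes were named by accession through a RefSeq table (GRCh38.p14), the rest by the name in the file. The procedure was tested on simulated data. The number of arrays limits the precision.

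The 10 members and the 4 other gene lists (upstream kinases and scaffolds, negative regulators of the kinase core, partners, and targets of YAP1 and WWTR1), with markers of K562 and of other cell types, were chosen with earlier results of these data known. Every member was named, and from each other list the genes past the threshold, at most the 4 largest in each direction (AMOTL2, beyond these, and MOB1A, not past the threshold, were added after their values were seen); for LATS2 the 5 nearest genes. K562 markers had 11 genes tested, of which 0 rose and 6 fell (median log2 ratio -0.29); markers of other cell types had 6 tested, of which 0 rose and 2 fell (median -0.08). Promoter windows around the transcription start came from RefSeq; STK3, TEAD1 and TEAD4 were not matched there. Alternatives changed the background step, normalisation, filter, dye term, array pairs, weights, threshold and arrays used.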

Additional observations from a re-analysis of the deposited data

How the results depend on the processing

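Across all probes, 2155 were called higher and 1152 lower. The count higher was 1342 with probes required to be well above background in both channels of every array, 54 without the dye term, 1323 with treated RNA in Cy5 only, 3392 with it in Cy3 only, 1353 at an adjusted p under 0.01, and 1008 to 2590 leaving out each array. The count lower was 596 under median centring, 4 without the dye term, 2781 in Cy3 only, 468 at 0.01, and 283 to 1469 leaving out each array. Calls were 65.2% higher, and 79.9% under median centring.

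Members called higher numbered 4. They were 2 under the strict filter (which left 2 tested), 0 without the dye term, 2 in Cy5 only, 2 at 0.01, and 1 to 5 leaving out each array. LATS2 kept its direction and its call under the alternatives that tested it, except without the dye term (0.78, adjusted p 0.0532 by limma). Leaving out each array gave 0.76 to 0.81, with a highest adjusted p of 0.004. The strict filter left LATS2 untested.

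Signs changed for LATS1 on processed signals (-0.051), in the series table (-0.045) and in Cy3 only (-0.10); for NF2 in Cy3 only (0.12) and without array 1 (0.013, in a range of -0.13 to 0.01 leaving out each array); for TAOK1 (-0.18) and ASAP1 (-0.24) in Cy5 only; and for RASSF5 in Cy3 only (0.50). The cause was not tested. Dim control signals (LATS2, STK4, TAOK1) limit the size of ratios.

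No paired analysis was possible because the arrays form a single group, so that no groups share replicate numbers, beyond the pairing of treated and control RNA that every within-array ratio already holds. Averaging arrays in pairs of opposite orientation left 4 members called.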
